A study of Arabidopsis thaliana with 8 samples.

Results

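The amplification of 50 ng of total RNA by 2 rounds of in vitro transcription (2IVT) was examined for what it reported of the change between early and later siliques, the seed pods of Arabidopsis. Siliques were harvested at 2 to 5 days after pollination (DAP) for the early sample and at 6 to 10 DAP for the late sample, and early material was added to the late sample to give a mixture of 90% late and 10% early (90%-late). The 2IVT regime is chosen by the titles of its hybridizations and holds 2 of the 8 in the series, called slide 1 and slide 2, the others being 2 each for 1 round of IVT from 5 µg (IVT), for PCR from 50 ng (PCR) and for labelling of 30 µg without amplification (unamplified). All were made from the same pair of RNA samples. The plants were grown in long days after hand pollination, and the sources used here name no ecotype. Only probes with a value on both 2IVT slides were used, which numbered 22263 of 26912, and 12226 of these carried a gene name, for 12028 loci. A gene is called measured below where a probe with its name had both values, and genes may also lie among the probes without a name. A further 470 probes had a value on slide 1 only, 1255 on slide 2 only and 2924 on neither.

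In IVT-based amplification, RNA is copied to double-stranded cDNA that carries a T7 promoter, and T7 RNA polymerase then makes many RNA copies from each template. A second round repeats this on the RNA made in the first, usually from random primers, so that the copies tend to shorten towards the 3′ end of the transcript. Over the stages sampled here the Arabidopsis seed passes from a dividing, syncytial endosperm and a young embryo towards maturation, when the embryo lays down storage proteins in vacuoles and oil in bodies coated with oleosins, and when late embryogenesis abundant (LEA) proteins that accompany desiccation tolerance begin to be made.

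Each value is a log2 ratio of the 2 dyes on a slide. The sign was turned here, so that a positive ratio is higher in 90%-late and a negative ratio is higher in early siliques. The dyes were never swapped, Cy5 marking early and Cy3 marking 90%-late siliques throughout, and a dye effect cannot be told apart from a stage effect. The direction was inferred from the dyes and from the design, since early material in the 90%-late sample limits how far a gene can appear early: without amplification 202 probes were 10-fold or more towards 90%-late and 1 towards early. Early RNA was amplified separately for each 2IVT slide, and both slides carried the same amplification of 90%-late RNA. The SD between slides therefore covers amplification and labelling of early RNA and hybridization, and neither the amplification of 90%-late RNA nor differences between plants. In whole siliques, fewer cells of a type and less RNA per cell cannot be told apart. A ratio gives no level, so the tissue could not be checked against the levels of its markers.

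After 2IVT, 3542 probes were called higher in 90%-late and 4290 lower, 15.9% and 19.3% (35.2% in either direction) of the 22263 tested, by limma on the 2 slides with a Benjamini-Hochberg adjusted p under 0.05. Among probes with a gene name the shares were 15.8% higher and 19.9% lower (35.7% in either direction). The 2IVT counts of every gene group below are to be read against these shares. The changes towards 90%-late reached further than those towards early. The 10% of early material in the 90%-late sample holds ratios towards early to about 10-fold. An asymmetry was thus built into the design, and it is no result about the stages. A mean of 4-fold or more was reached by 506 probes towards 90%-late and by 93 towards early, and a mean of 10-fold or more by 75 and 0. The highest mean was 42.4-fold and the lowest 8.68-fold towards early. The median of all probes was -0.04 on the log2 scale.

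The gene with a name that stood highest in 90%-late was FOLB3 (AT3G21730), an enzyme of folate synthesis, with log2 ratios of 4.72 and 4.80 on slides 1 and 2. AT1G31670, which encodes a copper amine oxidase, had 4.29 and 5.21. AT5G55410, of the lipid transfer protein and 2S albumin superfamily, had 4.28 and 4.92. AOP3 (AT4G03050), which modifies the side chain of glucosinolates, the defence compounds of this plant family, had 4.32 and 4.56. These 4 genes were all above 4 on both slides, and the slides differed most for AT1G31670 (SD 0.65). The adjusted p from limma was 4.23e-05 for FOLB3 and 4.92e-05 for AT1G31670.

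The remaining genes among the 15 highest had means between 3.74 and 4.17. They included AT1G28590, a GDSL lipase gene (4.17 ± 0.03, SD, n = 2), and AT2G18540, a cupin of the storage globulin type (4.02 ± 0.16). AT1G26400, which encodes a berberine bridge enzyme-like oxidase, had 3.80 ± 0.17, and GH9B15 (AT4G23560), a glycosyl hydrolase of family 9 that acts on cell wall glucans, had 3.77 ± 0.18. AT1G62210 (3.98 ± 0.12) lies in a group of related genes on chromosome 1. The widest gap within the 15 was that of AT5G64190, with 3.32 and 4.33. AT1G35970, AT2G23400, AT1G76230, AT3G56350 and AT1G47980 completed the set.

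Towards early siliques AT1G66870 stood lowest, with -2.85 and -2.82, followed by AT2G15340 with -3.01 and -2.48 and AT3G23450 with -2.98 and -2.49. AT3G10720, a pectin methylesterase gene, had -2.70 and -2.54, and RXF26 (AT1G58430), a GDSL lipase gene, had -2.62 and -2.44. AT1G58170, which encodes a dirigent protein of phenolic coupling, had -2.53 and -2.12. All 15 of the lowest named genes were at or below -2.04 on both slides, and slide 1 gave the lower value for each of them. The others were AT1G70270, AT2G28140, AT3G50560, AT5G36720, AT5G42530, AT1G06340, AT1G58460, AT3G46860 and AT3G50800.

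**Figure D1:**
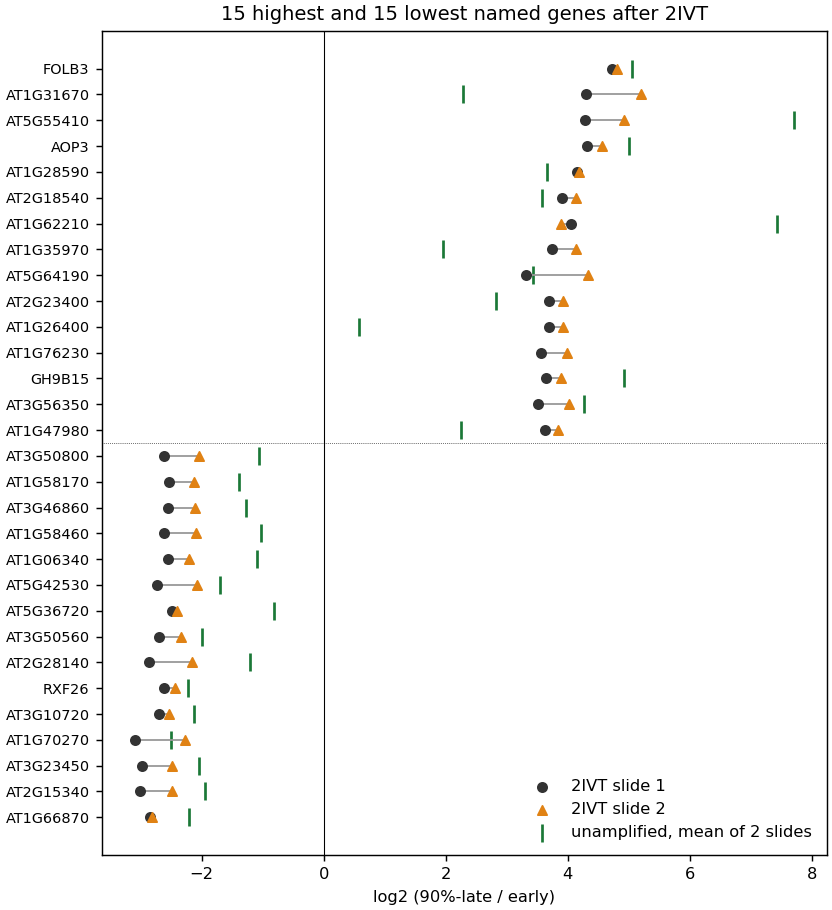
Log2 ratio of 90%-late over early (horizontal axis) for the 15 highest and 15 lowest named genes after 2IVT, ordered by mean from top to bottom. Circles are slide 1, triangles slide 2 and vertical ticks the mean of 2 unamplified slides; AT1G31670 lies at 4.75 after 2IVT and at 2.29 unamplified, and AT1G76230 has no tick because it lacked an unamplified value.

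The 2 slides correlated with r = 0.888 across the 22263 probes, which are not independent replicates, and the SD between slides was 0.253. The mean difference between the slides was largest at both ends of the range, but the SD between slides was clearly wider at the early end only. Among 93 probes with a mean under -2, slide 1 was below slide 2 for 78 and the mean difference was -0.369 (SD between slides 0.383). Among 143 probes with a mean of 3 or more, slide 1 was again below slide 2, for 128 probes, by -0.253 on average (SD 0.271). The SD was 0.27 for means from 0.5 to 1 and 0.232 for means from 2 to 3. At 4-fold slide 1 held more early and slide 2 more late probes: 168 probes were 4-fold or more towards early on slide 1 and 79 on slide 2, while 476 and 546 were 4-fold or more towards 90%-late. All 7832 called probes had the same sign on both slides, but a probe with opposite signs could not reach a call in this fit. The shared sign of called probes is therefore no measure of agreement. Of all 22263 probes, 79.0% had the same sign on both slides.

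**Figure D2:**
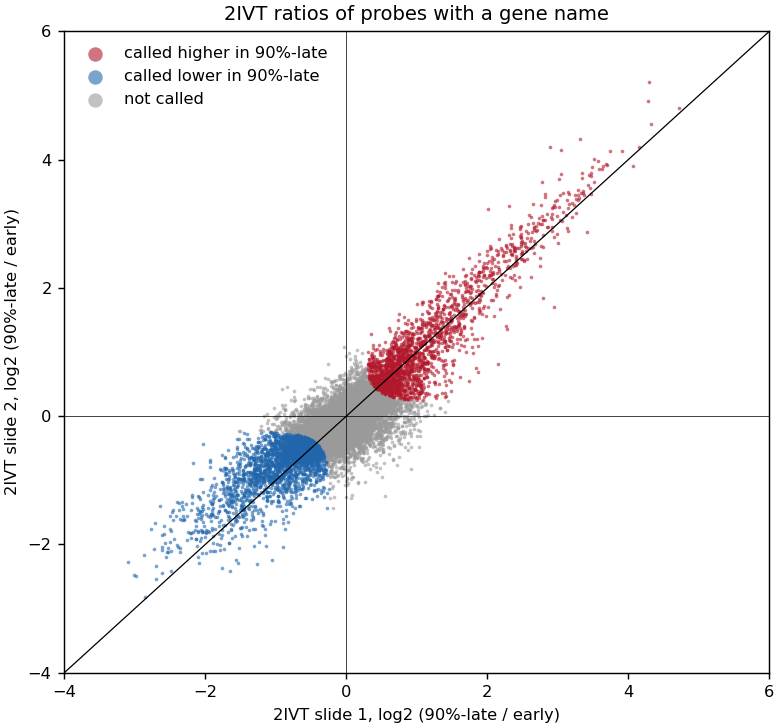
Log2 ratio of 90%-late over early on slide 2 (vertical axis) against slide 1 (horizontal axis) for each probe with a gene name, with the line of equality. Red probes were called higher in 90%-late, blue lower and grey not called; the upper end lies above the line, where slide 2 gave the higher value for 128 of the 143 probes (named or not) with a mean of 3 or more.

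Repeated probes gave a second view of the error. A set of 17 spots is annotated in the platform table as TUA1 (AT1G64740), an alpha-tubulin gene, whereas the paper assigns the repeated control spots to Actin-2, so their gene is in doubt. These spots averaged -0.02 ± 0.08 on slide 1 and -0.18 ± 0.09 on slide 2 (SD between spots), and none of the 17 was called. Of 149 loci with 2 or more probes, 71 had at least 1 probe called. In 21 of these all probes were called the same way, in 49 some were called and others were not, and in 1, AT4G33180, the 2 probes were called in opposite directions, with means of -0.49 and 0.77.

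All 4 measured seed storage genes of 13 listed were called higher in 90%-late, with a median of 2.86 against -0.05 for all named probes. AT2G18540 had 3.90 and 4.13, AT4G36700 2.89 and 4.19, and AT1G03890 2.14 and 2.23, all cupins of the storage globulin type. PAP85 (AT3G22640), a vicilin-like protein, had 1.48 and 1.49. Among the 4 the slides agreed least for AT4G36700 (SD 0.91). The vacuolar processing enzymes cleave storage proteins as they reach the vacuole, and 2 of 4 were called higher. BETA-VPE (AT1G62710), the seed type, had 2.69 and 2.88, and ALPHA-VPE (AT2G25940) had 2.78 and 2.64. GAMMA-VPE (AT4G32940) and DELTA-VPE (AT3G20210) both averaged 0.06 and were not called. Unamplified, GAMMA-VPE averaged 2.62 and DELTA-VPE 0.71, both called higher in a fit to those slides alone. The difference between 2IVT and unamplified was called for GAMMA-VPE and not for DELTA-VPE.

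The oil body list gave the same direction, with 4 of 4 measured genes of 11 listed called higher and a median of 1.24. AT2G25890, an oleosin gene, had 2.41 and 2.47. OLEO3 (AT5G51210) had 1.31 and 1.14, AT1G48990 1.10 and 1.42, and AT3G01570 0.70 and 0.64. AT2G25890 was therefore the oleosin with the largest ratio after 2IVT and AT3G01570 the one with the smallest, which is the reverse of their order without amplification, where AT3G01570 was at 8.98 and AT2G25890 at 1.27. In the list of fatty acid and oil synthesis, 28 genes long, only GPDHC1 and 2 probes of FATB were measured, and no probe was called (1 was called higher without slide 2 and 2 lower without slide 1). On 1 FATB probe the slides stood on opposite sides of 0, at 0.71 and -0.76, and on the other they gave 0.03 and 0.04.

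Of 24 listed LEA genes 11 were measured, 7 were called higher and none lower, with a median of 1.75. AT3G17520 had 3.38 and 3.45, AT5G44310 3.01 and 3.69, AT2G42560 2.92 and 3.15, and AT3G15670 averaged 2.85 ± 0.21. LEA4-5 (AT5G06760), AtLEA4-1 (AT1G32560) and LEA18 (AT2G35300) had means of 2.60, 1.75 and 1.52. The other 4, AT1G72100, AT3G53770, COR47 and DI21, lay between 0.03 and 0.27 and were not called, so the list split into a high and a low group with no member between 0.27 and 1.52. EEL (AT2G41070), a bZIP factor that binds the promoters of LEA genes, had 2.23 and 2.41 and was called higher. BZIP53 (AT3G62420), a partner of the maturation regulators, had 0.06 and 0.37 and was not.

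**Figure D3:**
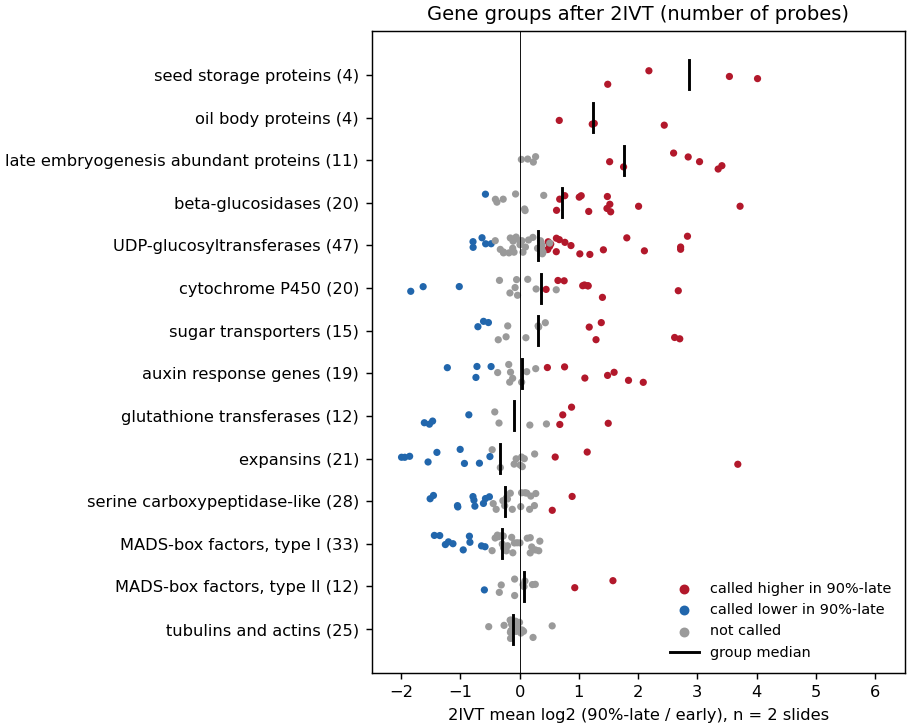
Mean 2IVT log2 ratio of 90%-late over early (horizontal axis, n = 2 slides) of each measured probe in 14 gene groups (rows, number of probes in brackets, spread vertically for clarity). Red probes were called higher in 90%-late, blue lower and grey not called, and the black bar is the group median; all seed storage and oil body genes are red, and the 33 type I MADS-box genes hold 10 blue and no red.

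Of 7 probes for 6 of 20 listed endosperm genes, 2 were called lower and none higher, beside 19.9% lower and 15.8% higher of all named probes, and the median was -0.36. AGL62 (AT5G60440), which holds the endosperm in its syncytial phase, averaged -0.85 ± 0.21, and AGL28 (AT1G01530), another MADS-box gene, had -1.11 and -0.79. PHE1 (AT1G65330), an imprinted MADS-box gene of the endosperm, had -0.67 and -0.27 (adjusted p from limma 0.0591), and was called without slide 2 or with a spread shared over the 8 slides. With the shared spread 4 probes of the list were lower and 1 higher, and without slide 2 the counts were 3 and 1. IKU1 (AT2G35230), a seed size gene, was split between the slides, with 1.13 and 0.00. The probes of DME averaged -0.36 and 0.17 and IKU2 -0.09. Of 35 loci that the paper names, 5 were measured. AT5G46950, of the invertase and pectin methylesterase inhibitor superfamily, was lower with -2.14 and -1.72. AT2G41000 had -0.32 and -0.07, and EXPA21 (AT5G39260), an expansin, had -0.28 and -0.65, neither of them called. PHE1 and BAN, described with their own groups, were not called either. With slide 1 or with slide 2 left out, 2 of the 5 were lower, and 3 with the shared spread.

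AGL62, AGL28 and PHE1 belong to the type I MADS-box genes, a large group of transcription factors, many of which act in the female gametophyte and the endosperm, whereas the type II genes include the floral organ and flowering time factors. Of 46 measured MADS-box probes, 2 were called higher and 11 lower. The family was divided into its types after these values had been seen. Among 33 type I genes, 10 were called lower and none higher, beside 19.9% lower among all named probes, and the median was -0.29. The number lower was 16 with the shared spread, 15 without slide 2 and 11 without slide 1, and 2, 1 and 2 genes were then higher. In a fit to the unamplified slides alone, 6 of 32 type I genes were higher and 4 lower, beside 18.6% and 27.4% of all probes (45.9% in either direction). AGL29 (AT2G34440) had -1.67 and -1.21, AGL36 (AT5G26650) -1.07 and -1.64, AGL48 (AT2G40210) -1.54 and -0.98, and AGL96 (AT5G06500) -0.85 and -1.56. Slide 1 was the lower for AGL29 and AGL48 and the higher for AGL36 and AGL96. AGL48 averaged 0.32 unamplified and 0.59 after PCR, and AGL29 averaged 0.49 after PCR, all called higher in fits to those slides alone. AGL36 averaged -1.09 unamplified and was called lower there. After PCR 6 of 32 type I genes were higher and none lower, beside 14.7% and 17.1% of all probes. After IVT 5 of 33 were higher and 17 lower, beside 26.4% and 37.5%. Among 12 type II genes, AGL18 (AT3G57390), a flowering repressor, averaged 1.57 ± 0.17, and AGL24 (AT4G24540), a flowering promoter, had 1.13 and 0.73. AGL42 (AT5G62165) was the only type II gene called lower (-0.82 and -0.38), a call lost without slide 1, and the median was 0.06. AT1G30260, which carries the synonym of a MADS-box gene, was put in neither type. The number of MADS-box probes called lower was 18 both without slide 2 and with a spread shared over all 8 slides, and 4 were then called higher with the shared spread or without slide 1.

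Of 4 measured genes of the fruit wall and valve margin, 3 were called higher and none lower. ADPG1 (AT3G57510), a polygalacturonase that loosens the dehiscence zone, had 2.08 and 1.82, and SPT (AT4G36930), a bHLH factor of the carpel margin, had 1.36 and 1.66. YAB3 (AT4G00180), a factor of valve identity, was higher with 0.42 and 0.62, a call that was lost without slide 2. ALC (AT5G67110), a valve margin factor, had -0.36 and -0.31 and was not called. Of the seed coat flavonoid list, CHIL (AT5G05270), a chalcone isomerase-like protein, was lower with -1.25 and -0.82. DFR and BAN, enzymes of proanthocyanidin synthesis, averaged 0.03 and 0.07 and were not called. BAN averaged -1.45 after IVT and -0.34 unamplified, and DFR -0.25 and -0.66. All 3 genes were called lower in the IVT slides alone and in the unamplified slides alone, beside 37.5% and 27.4% of all probes. After PCR 1 of the 3 was lower, beside 17.1% of all probes. AT3G50990, a class III peroxidase gene, was higher with 3.46 and 3.56.

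Cell wall genes were divided. Expansins loosen the wall and allow cells to grow. Of 21 measured, 3 were called higher and 9 lower, beside 15.8% and 19.9% of all named probes, and the median was -0.33. EXPB4 (AT2G45110) had -1.89 and -2.10, EXLA2 (AT4G38400) averaged -1.94 ± 0.08 and AT4G30380 had -2.37 and -1.35. EXPA24 (AT5G39310) went the other way with 3.48 and 3.88, and EXPA9 (AT5G02260) had 1.30 and 0.98. EXPA25 (AT5G39300), whose locus number lies next to that of EXPA24, had -1.52 and -1.57, so the neighbours differed in sign on both slides. Of 6 xyloglucan transglucosylases, XTH29 (AT4G18990) was higher with 1.73 and 1.82, and XTH19 (AT4G30290) and XTH32 (AT2G36870) were lower with means of -1.17 and -0.68.

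UDP-glucosyltransferases attach glucose to hormones and secondary metabolites. Of 47 measured, 17 were called higher and 5 lower, beside 15.8% and 19.9% of all named probes. UGT76E12 (AT3G46660) had 2.69 and 2.97, UGT85A7 (AT1G22340) 2.58 and 2.85, UGT85A3 (AT1G22380) 2.55 and 2.89 and UGT73C2 (AT2G36760) 2.16 and 2.05. UGT85A3, UGT85A5 and UGT85A7 are close copies at neighbouring loci, and long oligonucleotides may not keep such copies apart. Beta-glucosidases, which remove the sugar, gave 12 higher and 1 lower of 20, to be read against the same shares, with a median of 0.72. BGLU19 (AT3G21370) had 3.58 and 3.86, BGLU29 (AT2G44470) 2.12 and 1.90, and BGLU41 (AT5G54570) 1.46 and 1.61. BGLU42 (AT5G36890) was the lower call at -0.58, and 3 were lower without slide 1.

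Serine carboxypeptidase-like proteins, of which some act as acyltransferases of secondary metabolism, gave 2 called higher and 10 lower of 28, beside 15.8% and 19.9% of all named probes, and a median of -0.24. The lowest were scpl21 (AT3G25420), at -1.51 ± 0.12, and scpl40 (AT3G63470), with -1.65 and -1.26. The highest was scpl31 (AT1G11080), with 1.10 and 0.67. Among 20 cytochrome P450 genes, 9 were higher and 3 lower, to be read against the same shares. CYP78A9 (AT3G61880), which promotes fruit and seed growth, had 2.68 on both slides, and CYP718 (AT2G42850) had 1.43 and 1.36. CYP71B23 (AT3G26210) and CYP71B22 (AT3G26200) had means of -1.84 and -1.63. Glutathione transferases were evenly divided, 4 higher and 4 lower of 12, again beside these shares. They ran from GSTU25 (AT1G17180) with -1.67 and -1.55 to GSTU15 (AT1G59670) with 1.58 and 1.41.

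Sugar transporters carry sucrose and hexoses, some of them towards the embryo. Of 15 probes 5 were called higher and 3 lower, beside 15.8% and 19.9% of all named probes. AtVEX1 (AT5G62850) had 2.76 and 2.65, SWEET13 (AT5G50800) 2.54 and 2.69 and SWEET6 (AT1G66770) 1.42 and 1.33. SAG29 (AT5G13170), the exporter SWEET15 of seed filling, was split in size, with 1.83 and 0.74, and its call was lost without slide 1. SWEET2, SWEET1 and SWEET8 were lower, with means of -0.71, -0.61 and -0.53. Auxin genes gave 7 higher and 4 lower of 19, to be read against the same shares. The auxin synthesis gene YUC4 (AT5G11320) had 1.73 and 1.95, and YUC2 (AT4G13260) had -0.70 and -0.78, 2 members of the same enzyme family with opposite signs. GH3.9 (AT2G47750) and GH3.3 (AT2G23170), of a family that conjugates hormones to amino acids, had means of 2.09 and 1.48. IAA29 (AT4G32280) and IAA20 (AT2G46990), of the family of auxin response repressors, had means of 1.59 and -1.22. Of 7 defensin probes 3 were higher and none lower, again beside these shares, and LCR27 (AT4G29300) was highest with 2.66 and 2.95.

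Several groups gave few calls. None of the 25 tubulin and actin probes was called in limma, 17 of them the repeated spots of doubtful identity, and with the shared spread 1 was higher and 1 lower. Of 8 photosystem and light harvesting probes 1 was called, LHCB4.3 (AT2G40100) at -0.53, a call lost without slide 2. All 3 genes of carbon fixation measured, RCA, PRK and SBPASE, lay between -0.01 and 0.09 after 2IVT. In the other regimes they were not flat. All 3 were called lower after IVT (median -0.8), beside 37.5% of all probes. All 3 were also lower after PCR (median -0.58), beside 17.1%, and 1 was lower unamplified, beside 27.4%. Of 7 histone genes, HON4 was higher (0.55) and HTB1 and HIS4 lower (-0.71 and -0.63), of which HON4 and HIS4 lost their calls without slide 1, while 4 histone genes were lower without slide 2 and 4 with the shared spread. None of the 3 measured cell cycle genes was called in limma (2 higher and 1 lower with the shared spread). Of 9 WRKY factors 1 was called (WRKY42, -0.71), and of 6 pollen genes 1 (SHT, 1.21). The other listed pollen genes included ACT11, ANX1, VGD1 and VGDH1, with means of -0.52 to 0.39. ACT11, the lowest of them, averaged -1.64 after IVT and -1.66 unamplified, and was called lower in fits to those slides alone. Of the 6 pollen genes, 1 was called higher and 1 lower unamplified, beside 18.6% and 27.4% of all probes. After IVT 1 was higher and 2 lower, beside 26.4% and 37.5%.

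The same RNA labelled without amplification gave a different ratio for 2256 of 21871 probes, 1041 higher and 1215 lower in 2IVT (4.76% and 5.56%, 10.3% in either direction), by limma with adjusted p under 0.05. Without an unamplified slide 254 to 289 were higher and 315 to 335 lower, without 2IVT slide 2 the numbers were 1857 and 2008, and without 2IVT slide 1 they were 729 and 768. The 5 largest gaps downwards among named genes belonged to genes with unamplified means above 8. AT1G62060 had 0.13 and 0.08 after 2IVT and averaged 9.39 unamplified, and AT1G62000 had 0.14 and 0.04 after 2IVT and averaged 9.06 unamplified. AT1G62080 averaged 0.45 after 2IVT and 8.58 unamplified, and AT1G62225 averaged 1.28 after 2IVT and 9.21 unamplified. These 4 genes have locus numbers close together on chromosome 1, and AT1G62210, from the same stretch, kept a high ratio in both, 3.98 after 2IVT and 7.43 unamplified. The oleosin gene AT3G01570 averaged 0.67 after 2IVT and 8.98 unamplified. The values after IVT, between 1.48 and 3.32 for these genes other than AT1G62210, lay between those of 2IVT and unamplified target.

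In the other direction AT2G17860, a thaumatin-like gene, had 3.28 and 3.44 after 2IVT and averaged -0.14 unamplified. AT4G14980 averaged 3.05 after 2IVT and 0.01 unamplified, AT5G16460, a seipin of oil body formation, averaged 3.31 after 2IVT and 0.27 unamplified, and AT1G26400 averaged 3.80 after 2IVT and 0.58 unamplified. AT1G23520 averaged 3.20 after 2IVT and 0.45 unamplified. All 5 were also high after IVT, between 1.65 and 3.23, and their unamplified means lay between -0.14 and 0.58. After PCR AT1G26400 averaged 2.31, AT5G16460 had 1.20 and 1.79 on its PCR slides, and AT2G17860, AT4G14980 and AT1G23520 between -0.27 and 0.47. Of 1504 probes called after 2IVT with a mean of 2-fold or more towards 90%-late and an unamplified value, 898 were 2-fold or more unamplified, 533 had the same sign under 2-fold and 73 the opposite sign. Of 1233 such probes towards early, 563, 610 and 60 fell in these classes.

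**Figure D4:**
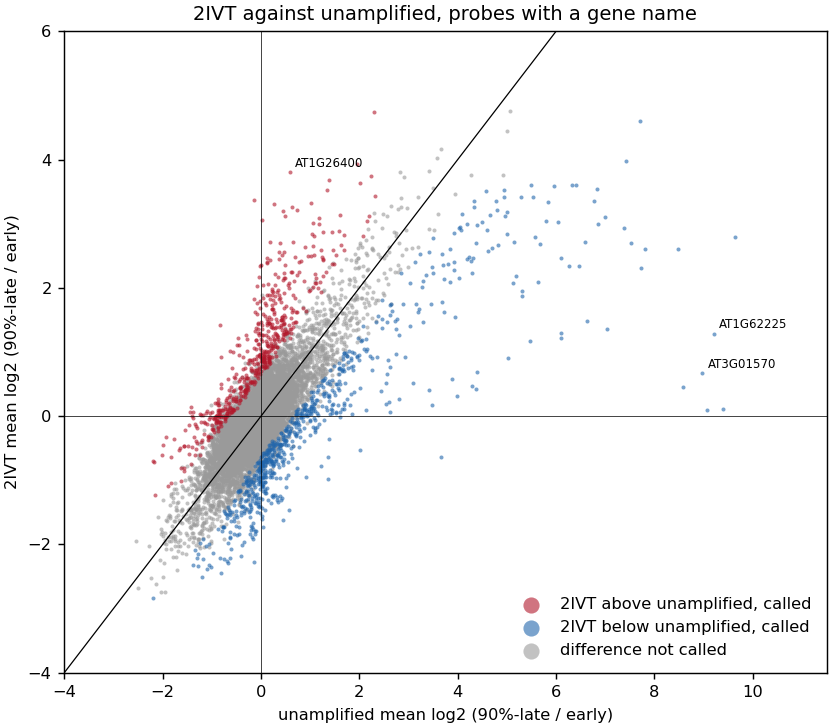
Mean log2 ratio of 90%-late over early after 2IVT (vertical axis) against that of unamplified target (horizontal axis), n = 2 slides each, for probes with a gene name, with the line of equality. Red and blue probes differed between the regimes by limma; at the far right AT1G62225 lies at 1.28 after 2IVT and 9.21 unamplified, and above the line near the vertical axis AT1G26400 lies at 3.80 after 2IVT and 0.58 unamplified.

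Against a single round of IVT from 5 µg, 967 of 21988 probes were higher and 1091 lower in 2IVT (4.40% and 4.96%, 9.36% in either direction). These counts moved widely with a slide left out, in a fit that takes its spread only from the regime that keeps 2 slides. The SD between slides was 0.253 for 2IVT and 0.162 for IVT. The swing therefore does not show what a given slide contributed. The 5 genes furthest above their IVT ratio were negative after IVT. RCA (AT2G39730), Rubisco activase, averaged -0.01 after 2IVT, -2.31 after IVT and -0.02 unamplified. ALDH11A3 (AT2G24270), a glyceraldehyde-3-phosphate dehydrogenase, averaged -0.02 after 2IVT, -1.97 after IVT and -0.73 unamplified. AT3G09440, a heat shock protein of the Hsp70 type, averaged -0.14 after 2IVT, -2.71 after IVT and -1.46 unamplified. AT1G62870 averaged 0.00 after 2IVT, -1.86 after IVT and -1.39 unamplified, and AT1G52800 averaged 0.70 after 2IVT, -1.30 after IVT and 0.15 unamplified. The calls of AT1G52800 without slide 1 and of AT2G22510 without slide 1 or without slide 2 were lost in the 2IVT ratio itself, while their differences from IVT kept theirs. Lower in 2IVT were AT2G22510 (0.47 after 2IVT, 4.27 after IVT and 4.29 unamplified) and AT3G04150, a germin-like gene (3.46, 6.93 and 3.95 in the same order). AT2G18480 and the LEA gene AT1G72100 averaged 0.13 and 0.27 after 2IVT and 3.67 and 3.50 after IVT. AT1G54870 averaged 2.79 after 2IVT and 6.07 after IVT.

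PCR started from the same 50 ng, and 2419 of 21128 probes were higher and 2467 lower in 2IVT (11.4% and 11.7%, 23.1% in either direction). With a PCR slide left out 1002 to 1030 were higher and 709 to 716 lower. AT1G31670 averaged 4.75 after 2IVT and -0.12 after PCR, FOLB3 4.76 after 2IVT and 0.60 after PCR, and AOP3 4.44 after 2IVT and 0.35 after PCR. AT1G35970 and AT1G03106 averaged 3.94 and 3.63 after 2IVT and 0.34 and 0.07 after PCR. Towards early, AT5G36720 averaged -2.45 after 2IVT and 0.31 after PCR, AT1G06340 -2.38 after 2IVT and 0.36 after PCR and AT1G12660 -2.27 after 2IVT and 0.32 after PCR. AT5G44380, a berberine bridge enzyme-like gene, was the reverse, at 0.81 after 2IVT and 3.61 after PCR. AT1G10095 averaged -0.68 after 2IVT and 1.73 after PCR, where the slides stood far apart (2.95 and 0.52, SD 1.72). Its 2IVT slides lay closer together (-0.51 and -0.84, SD 0.24). Its 2IVT call was lost with the spread shared over all 8 slides, which takes in these PCR slides.

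In a fit to the unamplified slides alone 18.6% of probes were called higher and 27.4% lower (45.9% in either direction). Of 7682 probes called after 2IVT and measured unamplified, 5376 were called the same way in that fit and 123 the opposite way. For IVT these numbers were 6907 and 86 of 7759, and in the IVT slides alone 26.4% of probes passed towards 90%-late and 37.5% towards early (63.9% in either direction). For PCR they were 2773 and 324 of 7380, where 14.7% were higher and 17.1% lower (31.8%). The regimes share the RNA samples, and these overlaps were not tested. Each regime occupied neighbouring slide numbers, so a batch of slides cannot be separated from the way target was prepared. The differences from IVT, PCR and unamplified target share the 2IVT slides.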

How the data were processed

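Ratios of 2 dyes were measured on long oligonucleotide slides scanned with GenePix. The log2 ratio of each probe on each slide was deposited by the authors, after normalization with elements of SNOMAD to the overall mean and to local means over position and over brightness. The paper also describes leaving out dim spots, setting a low channel to a fixed brightness and taking saturated spots from a weaker scan, and the sources used here do not say which of these the deposited values went through. Brightness was not used here, so no low values were filtered out, and the number of slides limits the precision.

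The sign was turned to 90%-late over early, with no further normalization. The mean of the 2IVT slides was tested against 0 in limma (lmFit and eBayes) on these 2 slides alone, with Benjamini-Hochberg adjustment over all 22263 probes and a threshold of 0.05. Differences from another regime were fitted on the 4 slides concerned. With 1 residual degree of freedom the prior (5.63 degrees of freedom) is estimated loosely. The fits were tested on repeated simulated data: false calls stayed near the nominal share at the density of changes seen here and exceeded it where few probes changed, so adjusted p near the threshold are approximate. An exact permutation test of 2 slides against 2 cannot give a two-sided p under 0.333, so none was run. The alternatives were centring, scaling, robust eBayes, a spread shared over all slides, fold thresholds, probes on all slides, a replicate block and leaving out each slide.

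Names came from the platform annotation, matched to RefSeq for 14533 of 14539 probes with a symbol. Genes were named by rule: the 15 highest and 15 lowest called probes, up to 4 called members with the largest mean in each list, other members where a list is accounted for, the 5 largest differences each way from each regime, and genes the paper names. Members, lists and families were chosen with earlier results of these data known, and the 17 lists and 31 families were described by counts and medians only. No gene of the lists of secondary wall and lignin or of abscisic acid and gibberellin was found by name among the probes used, and 12373 probes had no symbol to match. In 3 cases a gene matched a family by its letters alone and was left out. Promoter sequences were not analysed here. Replicate numbers did not pair slides between regimes: deviations of 2IVT correlated with those of the other regimes at -0.027 to -0.060. Fits were made in R 4.3.3 with limma 3.58.1. Tables used pandas 2.3.3 and numpy 2.4.6 in Python 3.11.15, and plots matplotlib 3.10.9.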

Additional observations from a re-analysis of the deposited data

Results flagged for a closer look

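Of 135 named probes with both 2IVT and unamplified ratios, 71 differed between the regimes in limma (adjusted p under 0.05), 44 lower and 27 higher in 2IVT, beside 10.3% of all probes. Many were named because of this difference or because their 2IVT ratio was large, so their share is no estimate for other genes. Values are 2IVT minus unamplified log2 ratios.

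Differences below -4 were those of AT1G62060 (-9.29), AT1G62000 (-8.97), AT3G01570 (-8.31), AT1G62080 (-8.13), AT1G62225 (-7.92), PAP85 (-5.15), OLEO3 (-4.88) and SAG29 (-4.81). The chromosome 1 genes, the oleosins AT3G01570 and OLEO3, the vicilin-like PAP85 and the sugar exporter SAG29 were all strongly late unamplified. Those between -4 and -2 were AT2G22510 (-3.82), AT1G62210 (-3.45), ADPG1 (-3.36), AT4G36700 (-3.29), AT5G55410 (-3.10), CYP78A9 (-3.0), AT1G03890 (-2.99), AT1G54870 (-2.78), ALPHA-VPE (-2.42), AT3G15670 (-2.15), AT1G12660 (-2.13) and AT3G17520 (-2.11), among which are storage globulins, LEA genes and a vacuolar processing enzyme. Smaller gaps of late and early genes were GH3.9 (-1.75), GSTU25 (-1.63), AT5G36720 (-1.62), AGL48 (-1.58), AT1G48990 (-1.54), AT1G72100 (-1.48), AT5G44310 (-1.42), AT4G30380 (-1.36), AT1G58460 (-1.33), AT2G28140 (-1.31), CYP71B23 (-1.30), AT1G06340 (-1.28) and AT3G50800 (-1.27). The remaining lower values were AGL29 (-1.16), GSTU23 (-1.13), AT3G50990 (-1.06), AT3G46860 (-1.05), AGL28 (-1.04), Prx37 (-0.98), AT1G58170 (-0.94), AT2G18480 (-0.94), YAB3 (-0.82), XTH19 (-0.69) and AT1G66870 (-0.63), where AGL29 and AGL28, like AGL48 above, are type I MADS-box genes.

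Above the unamplified ratio by up to 1.5 were ALDH11A3 (0.71), SHT (0.78), BGLU41 (0.92), PRX52 (0.95), PDF1.2c (1.09), EXPA21 (1.11), AT2G25890 (1.18), CYP718 (1.20), AT3G09440 (1.32), XTH29 (1.37), AT1G62870 (1.40), SWEET6 (1.48) and AT1G47980 (1.49). Larger values were those of IAA29 (1.55), AT1G03106 (1.62), YUC4 (1.79), UGT76E12 (1.80), AT1G35970 (1.98), UGT85A3 (2.06), EXPA24 (2.29) and AT1G31670 (2.46), with 2 UDP-glucosyltransferases, an expansin and 2 auxin genes. The highest were UGT85A7 (2.54), AT1G23520 (2.75), AT5G16460 (3.04), AT4G14980 (3.04), AT1G26400 (3.22) and AT2G17860 (3.51). The slides differ between the regimes, and their part in the differences cannot be told apart.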

How the results depend on the processing

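Requiring a 2-fold mean left 1532 probes higher and 1251 lower after 2IVT. Centring, scaling, robust eBayes, a shared spread, 1.5-fold, probes on all 8 slides and leaving out a slide kept both counts within 1.5 times, and r between slides was 0.865 without the most extreme probes and 0.888 over probes on all 8 slides. Leaving out slides changed the differences most: from unamplified, 254 to 1857 higher and 315 to 2008 lower; from IVT, 23 to 3397 and 179 to 2967; from PCR, 1002 to 3120 and 709 to 3161. A lone slide was taken to vary like the others. In a difference, the spread then came only from the regime that kept 2 slides, and the counts moved with it. For the 2IVT ratio, it came from the slides of the other regimes, so a call lost there may reflect their spread. With a spread shared over 8 slides the difference from unamplified gave 1800 higher and 1937 lower, and that from IVT 1553 higher. With a replicate block the difference from IVT gave 1547 higher and 1656 lower, and the other differences stayed within 1.5 times, all 30 named differences keeping their call. The replicate numbers were not shown to pair slides, and no paired analysis was possible for the 2IVT ratio itself. Among 140 named 2IVT ratios no called one changed sign. With a slide left out this could not happen, because every called probe had the same sign on both slides. ALDH11A3 and AT1G62870, near 0 and not called, lay on opposite sides of 0 on the 2 slides. Calls lost without slide 1 were those of HIS4, HON4, SAG29, NAC014, HSP93-III, AGL42, AT1G52800, AT2G22510 and AT1G10095. Those lost without slide 2 were YAB3, LHCB4.3, AT2G22510 and AT1G10095. After scaling HIS4, LHCB4.3, HSP93-III and AGL42 lost theirs, and with the shared spread AT1G10095. Centring split the calls into 4023 higher and 4116 lower. All values rest on 1 pair of RNA samples and 1 amplification of 90%-late RNA.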

Other observations

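Other measured lists and families added single genes. The glucosinolate list had 2 of 5 measured genes called higher, AOP3 and UGT74B1 (AT1G24100), a glucosyltransferase of the core pathway, with 0.93 and 0.80, while AOP1 (AT4G03070) had -0.50 and -0.08. Of 2 measured mucilage genes, AT2G22900, a glycosyltransferase gene, was higher with 0.96 and 0.52 and ARA12 (AT5G67360), a subtilisin-like protease, averaged 0.09. The senescence gene SAG101 (AT5G14930) was lower with -0.73 and -0.53. Of 5 class III peroxidases, PRX52 (AT5G05340) was higher at 0.75 and Prx37 (AT4G08770) and AT2G41480 lower at -0.89 and -0.76. Among pectin enzymes, AT4G02300 and PMEPCRF (AT5G53370) were lower, with means of -1.65 and -1.15. NAC014 (0.56) was higher, and the ribosomal protein gene AT1G77750 (-0.85) and HSP93-III (-0.54) lower; NAC014 and HSP93-III lost their calls without slide 1. PHV (AT1G30490), the embryo patterning gene measured, averaged 0.24, and 2 ethylene and jasmonate genes and 1 germin gene were measured without a call. No probe matched the name patterns for arabinogalactan proteins, lipid transfer proteins, berberine bridge enzyme-like proteins, aquaporins, amino acid and ABC transporters or MYB factors, although genes of some of these kinds carry other names. The defensins PDF1.2c (AT5G44430) and PDF1.3 (AT2G26010) were higher, with means of 0.83 and 1.08.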
